A study of Mus musculus with 9 samples.

Results

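Among the genes of semi-mature CD4 single-positive (SP4) thymocytes sorted by a Nur77-eGFP reporter, 404 transcripts without a proper gene name separated the cells with the highest reporter signal from those with the lowest. They carry provisional mouse symbols: Gm followed by a number, a RIKEN clone name ending in Rik, or the name of a coding gene followed by os (opposite strand) or -as1. The set was chosen on measured values. A transcript entered it if its mean level was at least 5 in transcripts-per-million (TPM) in GFPhi or GFPlo cells, if the group means of log2(TPM + 1) differed by at least 1, and if no GFPhi sample overlapped a GFPlo sample. The table holds 41978 genes, of which 20471 had such a symbol and 8259 of those reached the level. Of the 8259, 157 were higher in GFPhi cells (1.9%) and 247 were lower (2.99%). The split depended on the scaling between samples, with 197 higher and 217 lower under median-of-ratios scaling and 223 higher and 208 lower under quantile normalization. Because the GFPhi and GFPlo samples chose them, their differences between these groups are given as a description without a test. For scale, the same values were met by 346 of 10382 genes with other symbols in the higher direction (3.33%) and by 131 in the lower direction (1.26%).

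All cells came from thymi of Nur77-eGFP BAC Tg mice, in which a bacterial artificial chromosome with the Nr4a1 regulatory region drives eGFP, so that the reporter follows transcription of Nr4a1 (Nur77) after T cell receptor signaling. The mice were on the C57BL/6 background, of either sex and between weaning and young adulthood. Live CD25- CD69+ CD24+ CD4+ CD8- thymocytes were sorted into the highest, the medium and the lowest GFP-expressing 10% or so (GFPhi, GFPmed and GFPlo), with about 10000 cells and 3 biological replicates per group and no treatment. The labels call the cells CD24+, whereas the study's text gives both CD24lo and CD24hi for this gate.

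Nr4a1 itself read 213, 187 and 251 TPM in GFPlo, 366, 351 and 406 in GFPmed and 767, 917 and 836 in GFPhi samples, which puts the 3 groups in the order of their labels without overlap. Reads on genes ran from 7466007 to 14944563 per library. The 5 SP4 T cell markers summed to 3342 to 4096 reads-per-million (RPM) over the libraries. Among them Cd69, a marker of the sort, read 375 TPM on average in GFPlo, 366 in GFPmed and 216 in GFPhi samples. It fell by 0.79 in GFPhi against GFPlo cells (SE 0.13, adjusted p = 0.0142, limma). Cd3e, Cd4, Trac and Cd24a differed by -0.30 to 0.23. Markers of CD8 or double-positive thymocytes (5 of 6 in the table, Ptcra not among them) summed to 130 to 137 RPM in GFPlo, 105 to 109 in GFPmed and 55.3 to 75.5 in GFPhi libraries. Of these, Cd8a (-1.12), Cd8b1 (-0.79) and Dntt (-1.43) fell, whereas Rag1 differed by -0.20 (SE 0.32, adjusted p = 0.872, limma). Rag2, on at most 17 reads per sample, read 0.229 TPM in GFPlo and 0.717 in GFPhi samples. Foxp3 and Il2ra, which mark regulatory T cells, summed to 16.7 to 18, 17.5 to 21.3 and 60.4 to 79.3. Markers of B cells (12.8 to 38.0), of myeloid or dendritic cells (31.9 to 51.7) and of NK or innate-like T cells (4.71 to 16.2) overlapped between groups, erythroid markers (2 of 3 in the table, Hba-a1 not among them) stayed at or below 1.61, and epithelial markers (3 of 4, Krt5 not among them) summed to 6.21 to 12.3, 7.74 to 13.0 and 13.5 to 19.6. Of the epithelial markers, Epcam rose by 1.38 in GFPhi against GFPlo cells (SE 0.21, adjusted p = 0.0120, limma). Krt8 differed by 0.19 (SE 0.46, adjusted p = 0.930, limma), and Foxn1 read 0.703 TPM in GFPlo and 0.498 in GFPhi samples. In bulk RNA fewer cells of a type and less RNA per cell cannot be told apart, and the part of these cell types in the results below was not tested.

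Provisionally named transcripts are a mixed group. Antisense RNAs run against a coding gene and are often transcribed when that gene's chromatin is open, divergent RNAs start beside a coding promoter and run away from it, and sense intronic RNAs lie inside an intron of their host. Processed pseudogenes are copies of spliced messenger RNAs put back into the genome, most without a promoter of their own. In SP4 thymocytes that meet self-antigen, T cell receptor signaling switches on early genes such as Nr4a1, Egr and NF-kappaB targets, and shuts down genes of the less mature thymocyte.

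The sequences printed in this account come first. The 3 miRNA-class members Gm44394 at chr13:23570726-23570863 (plus strand), Gm44466 at chr13:21833093-21833230 (plus) and Gm19658 at chr13:21810712-21810849 (minus), all on GRCm38, hold one and the same run of 138 bases. It is printed because all 138 bases lie, in each case, inside the coding sequence of a histone H2A gene on the opposite strand (H2ac8, Hist1h2ap and Hist1h2ao), and the run has 36 near copies among annotated transcripts.

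Gm44394, Gm44466 and Gm19658: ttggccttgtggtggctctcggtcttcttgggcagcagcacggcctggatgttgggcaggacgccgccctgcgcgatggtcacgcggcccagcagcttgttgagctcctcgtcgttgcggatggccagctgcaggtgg

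Promoter windows (250 bases before to 50 bases after the annotated start, RefSeq, GRCm38.p6) were at hand for 26 of the 404 members, 19 of them higher and 7 lower. The windows below belong to 3 well-read members that were higher in GFPhi cells, and each was printed as a window with a match. Capitals mark a match to the cyclic AMP response element TGACGTCA in I730030J21Rik (chr15:100732688-100732987, minus strand) or to the NFAT-type core TGGAAA, read on the other strand as TTTCCA, in A430093F15Rik (chr19:10740697-10740996, plus) and in Gm16008 (chr4:156023775-156024074, minus, 1 of 2 windows listed for it). The other window of Gm16008 and those of the higher members Arhgap20os and Slfn5os held no match to any of the letters searched.

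I730030J21Rik: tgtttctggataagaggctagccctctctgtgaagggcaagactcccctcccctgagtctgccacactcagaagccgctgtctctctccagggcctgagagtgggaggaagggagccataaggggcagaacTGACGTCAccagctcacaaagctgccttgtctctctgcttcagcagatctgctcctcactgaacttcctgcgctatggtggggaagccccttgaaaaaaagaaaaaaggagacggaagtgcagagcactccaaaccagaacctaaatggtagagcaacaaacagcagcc

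A430093F15Rik: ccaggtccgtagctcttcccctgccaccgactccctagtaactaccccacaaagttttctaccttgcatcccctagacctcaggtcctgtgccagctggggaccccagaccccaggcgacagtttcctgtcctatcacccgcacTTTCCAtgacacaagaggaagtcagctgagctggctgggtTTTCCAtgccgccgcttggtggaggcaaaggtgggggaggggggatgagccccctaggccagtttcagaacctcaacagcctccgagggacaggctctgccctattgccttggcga

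Gm16008: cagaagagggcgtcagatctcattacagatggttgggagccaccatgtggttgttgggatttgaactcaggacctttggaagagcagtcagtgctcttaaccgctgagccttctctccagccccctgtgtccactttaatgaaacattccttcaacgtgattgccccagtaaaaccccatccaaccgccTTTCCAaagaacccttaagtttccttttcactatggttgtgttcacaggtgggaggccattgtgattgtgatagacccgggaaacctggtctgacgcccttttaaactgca

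The response element began 119 bases before the start of I730030J21Rik, the NFAT-type cores 106 and 66 bases before that of A430093F15Rik, and the one of Gm16008 61 bases before its start. Searched on both strands, TGACGTCA stood in a window of 1 of the 19 higher and of none of the 7 lower members, against 1.79% of all 32851 promoter windows. TGGAAA stood in a window of 3 of the 19 and 2 of the 7 members (21.4% of all windows). The NBRE AAAGGTCA, the monomer site of Nr4a receptors, stood in a window of 1 of the 19 higher members, 54 bases before the start of 2010016I18Rik, and in 1.51% of all windows. The AP-1 letters TGANTCA stood in windows of 2 of the 7 lower members, 2310075C17Rik and Gm30970 (7.81% of all windows). The EGR letters GCGTGGGCG stood in no member's window and in 0.612% of all windows. Members with more than 1 window were counted once, whereas the shares of all are shares of windows. These matches describe letters in the windows only.

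The members fell into many annotated classes. Among the 157 that were higher, 29 were processed pseudogenes, 26 antisense RNAs, 17 snRNAs, 15 of miRNA class, 14 of class TEC (awaiting experimental evidence), 10 snoRNAs, 9 protein-coding and 9 intergenic long noncoding RNAs. Among the 247 that were lower, 103 were processed pseudogenes, 31 snoRNAs, 20 snRNAs, 19 of class TEC, 16 of miRNA class, 13 intergenic, 12 miscellaneous RNAs, 9 antisense RNAs and 5 protein-coding. A single exon made up 105 of the higher and 218 of the lower members, with median exonic lengths of 457 and 335 bases, and no matching values over all 8259 genes are given here. For the counts by class, the 8259 provisionally named genes at the level set the scale. They held 3224 processed pseudogenes, of which 0.9% were higher and 3.19% lower members, and 722 antisense RNAs, of which 3.6% were higher and 1.25% lower members. Of 477 snoRNAs 2.1% were higher and 6.5% lower, of 596 snRNAs 2.85% and 3.36%, of 312 genes of miRNA class 4.81% and 5.13% and of 1282 genes of class TEC 1.09% and 1.48%. These shares are a description, and no difference between classes or directions was tested.

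**Figure D1:**
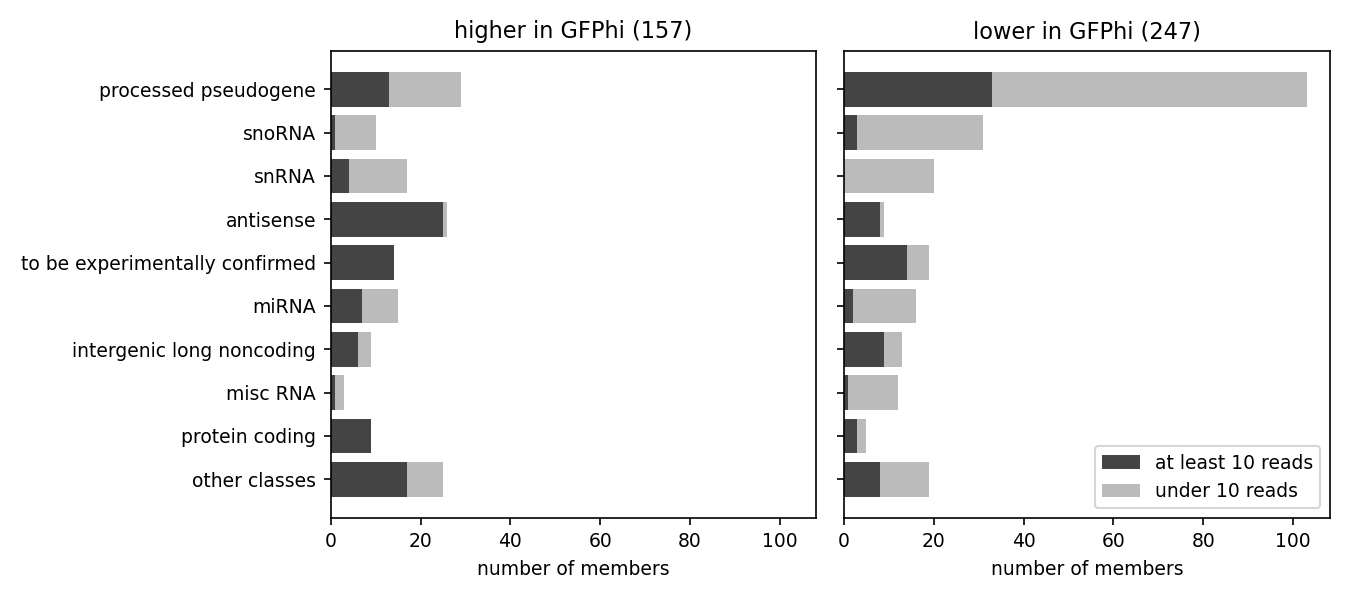
Number of members (x axis) in each annotated class (y axis), for members higher (left) and lower (right) in GFPhi than in GFPlo cells; dark bars are members with at least 10 reads on average in the group where they were higher, pale bars those with fewer. Processed pseudogenes make up 103 of the 247 lower members and 29 of the 157 higher ones, while 25 of the 26 higher antisense members have at least 10 reads.

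Members differed widely in depth. The deposited TPM divides reads by a gene length that, for 98.3% of 41439 genes compared, equals the mean genomic span of the transcripts with introns, so that a short single-exon gene reaches 5 TPM on a few reads while a long gene with introns needs many more. TPM of different genes are therefore not compared here on an exonic scale. Members that were higher had a median of 14.3 reads per sample in GFPhi cells (range 1 to 1584), and 97 of 157 had at least 10. Members that were lower had a median of 6.33 reads in GFPlo cells (range 1 to 2796), and 81 of 247 had at least 10. At 100 reads or more 30 higher and 10 lower members were left. The number of provisionally named genes with a TPM of at least 1 ran from 11572 to 14005 in GFPlo, 12366 to 13377 in GFPmed and 10226 to 13799 in GFPhi libraries, with the lowest in GFPhi replicate 2. Reads on olfactory and vomeronasal receptor genes, which SP4 cells are not known to use, ran from 2382 to 4354 RPM in GFPlo, 2812 to 3300 in GFPmed and 2022 to 4303 in GFPhi libraries, and their part in the members with few reads was not tested. Leaving out 1 library loosens the rule, which then takes in more genes: 859 lower members without GFPhi replicate 1, 779 without GFPlo replicate 3 and 416 higher members without GFPhi replicate 2. With 1 GFPlo or GFPhi library left out, 137 to 151 of the 157 higher and 193 to 234 of the 247 lower members stayed in the set.

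The transcript with the largest difference was 1110032F04Rik, a single-exon gene of protein-coding class with no described role known here. Its TPM was 2.37, 0 and 1.55 in GFPlo, 3.55, 4.0 and 2.96 in GFPmed and 71.2, 69.6 and 84.9 in GFPhi samples, resting on 8, 0 and 6, 23, 16 and 10 and 386, 330 and 367 reads. It was near the floor in both lower groups and high in every GFPhi sample, a difference of 5.21 on the log2(TPM + 1) scale. Gm17641, of class TEC, overlaps it head to head on the opposite strand of chromosome 3 and shares 681 bases with it. It read 3.58, 1.31 and 3.13, 2.03, 5.21 and 3.57 and 24.1, 19.9 and 31.2 TPM in the 3 groups, with GFPhi samples alone set apart, and differed by 2.87. This was the 1 pair in which the coding neighbour of a member was itself a member. As the library kits do not keep strand, reads on the shared bases cannot be told apart between these genes.

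3 of the named members were without a read in every GFPlo sample, so no fold is given. Gm16120, a 7-exon antisense RNA inside the spindle checkpoint gene Mad1l1 that shares none of its exons, had 0 reads in each GFPlo sample, 1, 3 and 0 reads in GFPmed and 32, 41 and 20 in GFPhi samples. Mad1l1 itself read 1.56, 1.75 and 1.65 TPM in GFPlo and 1.46, 1.84 and 1.63 in GFPhi samples, which overlap (difference -0.01, SE 0.18, adjusted p = 0.994, limma), with a sign that flips to 0.05 under median-of-ratios scaling and to 0.13 under quantile normalization. Gm42778, of class TEC and inside Ttc28, had 3, 1 and 2 reads in GFPmed and 13, 9 and 10 in GFPhi samples. Prss23os, opposite the serine protease gene Prss23, was without reads in GFPlo and GFPmed samples and had 26, 11 and 6 in GFPhi samples, while Prss23 differed by 0.50 (SE 0.34, adjusted p = 0.641). All 3 members were thus detected mainly or solely in the GFPhi libraries.

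Further members with large differences were Gm44722, Gm3636 and Gm28513. Gm44722, of class TEC and inside the cation channel gene Trpm1, read 15.8, 18.3 and 7.66 TPM in GFPlo, 16.4, 14.8 and 24.5 in GFPmed and 88.3, 134 and 135 in GFPhi samples. Gm3636, a coding gene with 45 near copies among which its reads may be split, read 0.539, 1.52 and 0.943, 1.33, 1.7 and 1.75 and 8.55, 13.7 and 11.5. In both the GFPhi samples stood above all others and the GFPlo and GFPmed samples overlapped. Trpm1, which shares exonic bases with Gm44722 on the opposite strand, differed in the same direction by 2.28 (SE 0.21, adjusted p = 0.00122, limma). Reads of Gm44722 on those bases cannot be told apart from reads of Trpm1.

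**Figure D2:**
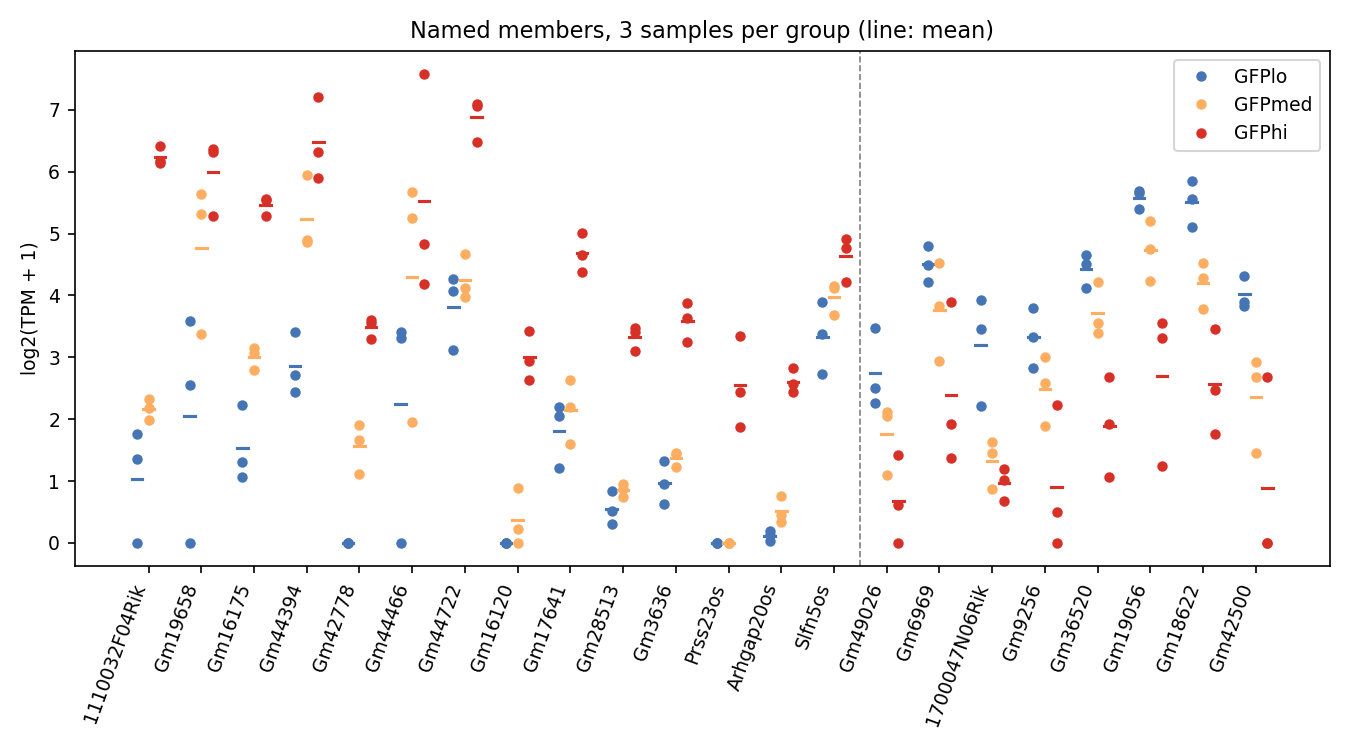
Level of each named member in each of the 9 samples (y axis, log2(TPM + 1); points are samples, short lines group means), with the 14 higher members left and the 8 lower members right of the dashed line. GFPhi points of 1110032F04Rik lie above 6 while all its other points lie below 3, and the GFPlo points of Gm16120, Gm42778 and Prss23os lie at 0.

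Whether reads could be given to a strand bears on every antisense member. The SMART-seq v4 and Nextera XT kits named in the labels do not keep strand, yet the table looks as if reads had been assigned by strand. Of 712 annotated genes with every exonic base in same-strand exons of other genes, 3 (0.421%) were listed with reads. Of 460 genes with every exonic base in opposite-strand exons, 307 (66.7%) were listed with reads. Where the opposite gene had at least 1000 reads, 165 of 193 such genes were listed, with a median of 1.47 times the reads that the opposite gene's own density would put on the shared bases (quartiles 0.653 and 2.59). Reads of an antisense member on bases that it shares with exons of a coding gene thus cannot be told apart from reads of that gene, and no strand setting is given in the sources used here. Such sharing was found for 62 of the 157 higher members (39.5%) and 17 of the 247 lower ones (6.88%), and for 21 of 30 and 7 of 10 of those with at least 100 reads. No matching share over all provisionally named genes at the level is given here. As the higher members were also better read, the counts are a description.

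Antisense RNAs were the most frequent class among higher members with at least 10 reads (25 of 97). They made up 8.74% of the provisionally named genes at the level. Their share among all such genes with at least 10 reads is not given here, so the count is a description. The members with many reads are described next by the coding gene beside them, and those that are neither among the largest differences nor end in os were picked after their values were seen. Gm16008, a 7-exon RNA opposite Tnfrsf18 (which encodes the costimulatory receptor GITR), had the most reads of all higher members. It read 42.2, 38.5 and 42.5 TPM in GFPlo, 79.9, 78.9 and 94.1 in GFPmed and 162, 186 and 158 in GFPhi samples, so the 3 groups lay in order and apart. Its mean was 41.0 TPM (SD 2.21, n = 3) in GFPlo and 168 TPM (SD 15.3, n = 3) in GFPhi samples, 4.10 times as high. Tnfrsf18 read 162, 184 and 177, 326, 337 and 407 and 681, 795 and 672 TPM with the same order, and rose by 2.03 (SE 0.11, adjusted p = 9.21e-05, limma on log2(TPM + 1), adjusted over all genes tested). Exons of Tnfrsf18 cover 31.3% of the exonic bases of Gm16008. Over all its exons, shared or not, Gm16008 held 2.03 times the reads that the density of Tnfrsf18 would put on the shared bases alone.

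Gm16175 lies inside Bcl3, which encodes an atypical IkappaB protein that acts with NF-kappaB p50 and p52. It read 3.71, 1.08 and 1.48 TPM in GFPlo, 7.91, 5.97 and 7.42 in GFPmed and 38.2, 46.1 and 45.6 in GFPhi samples, and Bcl3 read 5.03, 2.24 and 3.66, 18.1, 13.6 and 18.1 and 106, 131 and 124. Both were lowest in every GFPlo and highest in every GFPhi sample. Bcl3 rose by 4.74 in GFPhi against GFPlo cells (SE 0.23, adjusted p = 6.49e-05). In GFPmed against GFPlo cells it differed by 1.96, with an adjusted p (0.0482) close to the limit. Over all genes, calls in that contrast ran from 2 to 18 with 1 library left out. Of the exonic bases of Gm16175, 64.9% lie in exons of Bcl3.

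Arhgap20os lies on the other strand of the GTPase-activating protein gene Arhgap20 and shares 6.12% of its exonic bases with that gene. It read 0.142, 0.0974 and 0.0177 TPM in GFPlo, 0.369, 0.699 and 0.263 in GFPmed and 4.4, 6.09 and 4.92 in GFPhi samples, from 7, 6 and 1, 35, 41 and 13 and 350, 423 and 312 reads. The GFPhi samples stood far above both other groups, 60.1 times the GFPlo mean. Arhgap20 rose by 4.77 (SE 0.20, adjusted p = 4.56e-05), the largest change of any neighbour, and read 47.2, 58.2 and 53.4 TPM in GFPhi samples against 1.21, 1.17 and 0.596 in GFPlo samples. The other os member with many reads, Slfn5os, read 13.9, 5.62 and 9.42, 16.7, 11.8 and 16.4 and 26.3, 17.7 and 29.2 TPM and shares 64.4% of its exonic bases with Slfn5, a Schlafen family gene. Slfn5 rose by 1.52 (SE 0.32, adjusted p = 0.0431), a call that was lost in most alternatives tried, among them each fit that left out 1 library other than GFPlo replicate 1.

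The same pattern of a member and a coding gene on opposite strands recurred at further T cell genes, which are named here after their values were seen. E430024P14Rik, Gm26577 and Gm45515 each share exonic bases with their coding gene. Reads on those bases cannot be told apart from reads of the coding gene. E430024P14Rik, beside the T cell activation GTPase-activating protein gene Tagap, read 0.608, 0.957 and 1.06 TPM in GFPlo, 1.82, 1.89 and 1.97 in GFPmed and 6.84, 6.87 and 8.24 in GFPhi samples. Gm26577, opposite the thymocyte transcription factor gene Myb, read 3.29, 2.51 and 3.1, 6.56, 4.65 and 5.51 and 14, 19.2 and 16.1. Gm45515, opposite Swap70, read 16.7, 21.3 and 15.3, 18.2, 18.4 and 14.9 and 50.8, 65.1 and 50.3. The 3 groups lay apart in order for E430024P14Rik and Gm26577, whereas GFPmed and GFPlo samples of Gm45515 overlapped. Tagap rose by 4.04 (SE 0.26, adjusted p = 0.00024), Myb by 1.98 (SE 0.13, adjusted p = 0.00029) and Swap70 by 1.66 (SE 0.17, adjusted p = 0.00188).

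Gm28513 is antisense to Rgs16, a regulator of G protein signaling, and shares exonic bases with it, so the same limit holds. It read 0.795, 0.425 and 0.231 TPM in GFPlo, 0.827, 0.669 and 0.925 in GFPmed and 7.57, 10.1 and 9.61 in GFPhi samples. GFPhi samples alone stood apart, as they did for Rgs16, which rose by 3.6 (SE 0.26, adjusted p = 0.000431). Gm17041 has every exonic base inside exons of Cish, a feedback inhibitor of cytokine signaling, and read 19.9, 31.1 and 26.6, 26.5, 23.4 and 27.2 and 68.4, 77.6 and 80.9. Cish rose by 1.81 (SE 0.15, adjusted p = 0.000806). Gm12534, wholly within exons of the cytokine gene Il21 on the other strand, read 2.02, 2.7 and 8.81, 7.0, 11.9 and 6.71 and 17.6, 20.6 and 17.3, and Il21 rose by 1.21 (SE 0.19, adjusted p = 0.0122), a call that 5 of 18 alternatives ended, with adjusted p of at most 0.0756.

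Gm50394, opposite the MAP kinase phosphatase gene Dusp5, read 100.03, 95.5 and 123 TPM in GFPlo, 133, 109.5 and 146 in GFPmed and 211, 244 and 254 in GFPhi samples. Over all its exons it held 0.685 times the reads that the density of Dusp5 would put on the shared bases. Its GFPlo and GFPmed samples overlapped. Dusp5 rose by 1.23 (SE 0.12, adjusted p = 0.00129). A330009N23Rik overlaps the scaffold protein gene Grasp without sharing its exons and lies 29082 bases from Nr4a1. It read 7.63, 7.7 and 5.81, 11, 10.6 and 8.84 and 25.7, 37.7 and 32.4, in order and apart, and Grasp rose by 2.25 (SE 0.18, adjusted p = 0.00061).

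**Figure D3:**
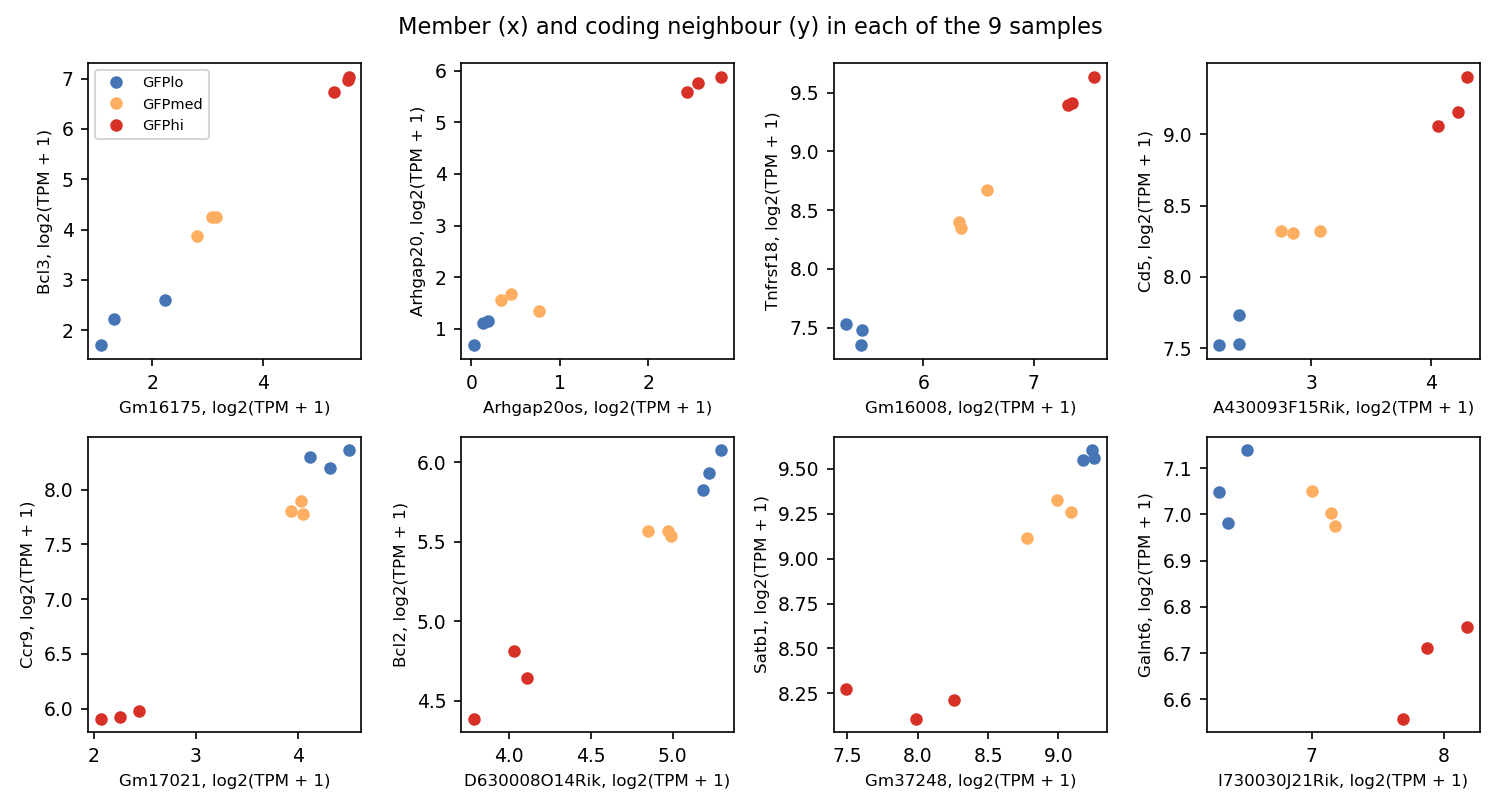
Level of a member (x axis) against its coding neighbour (y axis), both log2(TPM + 1), in the 9 samples of 8 pairs; each point is a sample, coloured by group, and the axes do not start at 0. In 7 pairs GFPlo, GFPmed and GFPhi points are ordered the same way for member and neighbour, while for I730030J21Rik and Galnt6 the member is highest and the neighbour lowest in GFPhi samples.

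Across the set, 387 members had a protein-coding neighbour, taken as the gene with the longest overlap or, without overlap, the smallest gap. The values of these neighbours were not used in choosing the set, although members sharing bases with them are not independent of them. Beside higher members 113 of 139 neighbours passed the filter on low values and 33 were called in GFPhi against GFPlo cells (29.2%), all 33 of them higher, with a median difference of 0.33. Calls needed a limma adjusted p of at most 0.05 and a log2 fold change of at least 1 in size. The same calls were made for 305 of 14377 protein-coding genes in the higher direction (2.12%) and for 75 in the lower one (0.522%), for 387 (1.26%) and 124 (0.404%) of all 30693 genes tested, and for 66 (1.93%) and 12 (0.351%) of 3414 coding neighbours of provisionally named genes outside the set. The median difference of all protein-coding genes tested was -0.05.

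The share called differed by the relation of the pair and by depth, in counts that were not tested against each other. Of neighbours that shared exonic bases with a higher member on the opposite strand 23 of 44 were called (52.3%), of those overlapped on the opposite strand without shared exons 1 of 11 (Grasp), of those overlapped on the same strand 6 of 16 (37.5%), and of those without overlap 5 of 45 (11.1%). Beside members with at least 10 reads 29 of 72 were called (40.3%), and beside those with fewer reads 4 of 41 (9.76%). The 5 without overlap were Dsn1, Igf2r, Cd5, Dusp5 and Il21, and the last 2 are also overlapped by another member. Other called neighbours with shared exons, picked after their values were seen, included Gfi1 (1.79), Irak2 (1.79), Plk1 (1.75), Sdc3 (1.59) and Phlda1 (1.27), and of 18 alternatives 10 ended the call of Plk1 and 13 that of Phlda1. Beside lower members 145 of 229 neighbours were tested and 7 were called, 6 of them lower (4.14%) and 1 higher (Parp11, 1.07), with a median of -0.13.

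**Figure D4:**
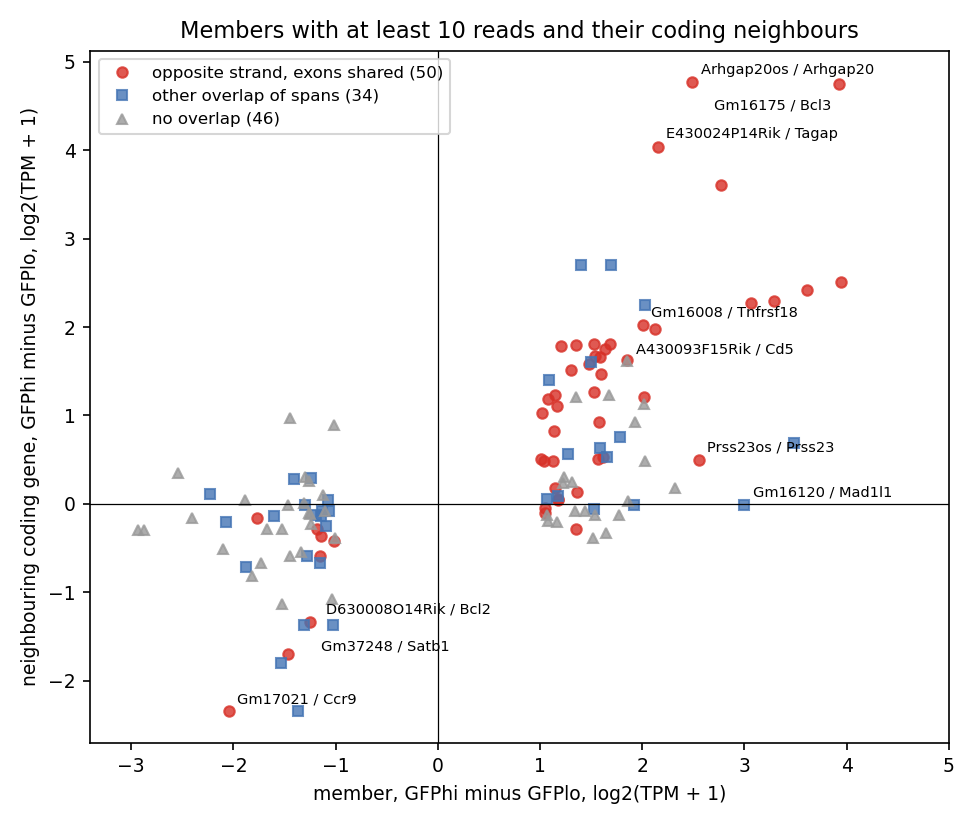
Difference between GFPhi and GFPlo means on the log2(TPM + 1) scale for members with at least 10 reads (x axis) and for their coding neighbours (y axis), one point per pair; colour and shape give the relation of the spans. No points lie between -1 and 1 on the x axis because the members were chosen that way, and pairs with shared opposite-strand exons (circles) reach from Ccr9 at -2.35 to Arhgap20 at 4.77.

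In 2 sense intronic members the difference had the same direction as in the host gene. Gm29112 and Gm28112 lie in introns of Ikzf2, which encodes Helios, a transcription factor of self-reactive and regulatory T cells. Gm29112 read 17.1, 18.1 and 9.39 TPM in GFPlo, 18.7, 14 and 8.97 in GFPmed and 41.7, 35.3 and 41.9 in GFPhi samples, and Gm28112 read 7.34, 6.22 and 7.48, 10.4, 12.7 and 4.48 and 23.1, 20.9 and 32.1. GFPlo and GFPmed samples overlapped in both and every GFPhi sample lay higher. Ikzf2 rose by 2.7 (SE 0.17, adjusted p = 0.000236). Reads of unspliced Ikzf2 RNA would fall on these introns, and their part was not tested. As the kits do not keep strand, this limit holds for members on either strand of an intron. It thus also bears on Gm16120 in Mad1l1, on A330009N23Rik where it overlaps Grasp, on Gm18760 in Chdh and on Gm37248 in Satb1.

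The 3 members opposite histone H2A genes were thinly read. Gm44394 read 5.54, 4.45 and 9.68 TPM in GFPlo, 28.8, 28 and 60.8 in GFPmed and 58.6, 78.8 and 147 in GFPhi samples, on at most 34 reads per sample. Gm44466 read 0, 8.89 and 9.68, 2.88, 37.3 and 49.8 and 17.2, 27.6 and 190.1, where 1 GFPhi sample (replicate 3) stood far above its group. Gm19658 read 11.1, 0 and 4.84, 49, 9.33 and 38.7 and 37.9, 78.8 and 82.1. GFPmed samples overlapped GFPhi samples in all 3. Their histone genes differed by 2.42 (H2ac8, SE 0.40, adjusted p = 0.0163), 2.29 (Hist1h2ap, SE 0.99, adjusted p = 0.362) and 2.51 (Hist1h2ao, SE 0.73, adjusted p = 0.135), and the call for H2ac8 was lost without GFPlo replicate 2, without GFPhi replicate 3 or with GFPmed samples left out of the fit (adjusted p = 0.0753). Gm44335, 141 bases wholly opposite H2ax, which encodes the DNA damage histone H2A.X, was better read. It had 157, 135 and 289 TPM in GFPlo, 285, 224 and 292 in GFPmed and 465, 606 and 541 in GFPhi samples, and H2ax rose by 1.68 (SE 0.22, adjusted p = 0.00611).

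Some well-read members shared no exonic base with their neighbour. A430093F15Rik, the promoter of which is printed above, starts divergently 1944 bases from Cd5, which encodes an inhibitory receptor set by T cell receptor signal strength. It read 4.26, 3.69 and 4.27 TPM in GFPlo, 5.71, 6.2 and 7.4 in GFPmed and 15.7, 18.7 and 17.7 in GFPhi samples, with no overlap between the 3 groups. Cd5 rose by 1.61 (SE 0.10, adjusted p = 0.000188). I730030J21Rik, with the cyclic AMP response element, read 81.6, 78 and 90.3, 127, 144 and 141 and 206, 288 and 233, also in order and apart. Its neighbour Galnt6, a mucin-type glycosyltransferase gene 1104 bases away on the same strand, read 125, 131 and 140.0, 132, 125 and 127 and 93.2, 107 and 104, a difference of -0.38 (SE 0.07, adjusted p = 0.0286) that stayed under the fold limit. The adjusted p exceeded 0.05 in 12 of 18 alternatives, with a difference between -0.42 and -0.30 in all 18.

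Dennd2d, a Rab exchange factor gene, has 2 members beside it. 2010016I18Rik, which overlaps it with 11% of exonic bases shared, read 109, 99.8 and 105 TPM in GFPlo, 158, 149 and 143 in GFPmed and 200.5, 240.2 and 209.7 in GFPhi samples. Gm38244, 1536 bases from the gene, read 20.7, 15.2 and 23.5, 58.9, 63 and 38.1 and 76.8, 92.6 and 79.1. GFPlo samples were lowest in both, and the GFPmed mean of Gm38244 lay nearer to the GFPhi than to the GFPlo mean. Dennd2d differed by 0.48 (SE 0.07, adjusted p = 0.0102), under the fold limit, and the adjusted p exceeded 0.05 in 4 of 18 alternatives. 4833407H14Rik, an intergenic RNA with 67.5% of its exonic bases opposite the long noncoding RNA Mirt1, read 18.5, 9.92 and 8.9, 13.4, 9.81 and 9.8 and 41.2, 33.1 and 46.8 TPM, with GFPmed samples inside the GFPlo range. Mirt1 differed by 1.04 (SE 0.26, adjusted p = 0.0886) and was called with quantile normalization (adjusted p = 0.0428), the replicate block (0.0436) and limma-voom on reads (0.00739), but in none of the other 15 alternatives.

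Of the members that were lower in GFPhi cells, the best read lie at Satb1, Bcl2 and Ccr9 and are named after their values were seen. Satb1 encodes a chromatin organizer of thymocytes. Gm37248, of class TEC and inside an intron of Satb1 on the same strand, read 610.1, 577 and 604 TPM in GFPlo, 506, 543 and 438 in GFPmed and 252, 179 and 305 in GFPhi samples, from up to 4039 reads in a library. Gm36931, on the same strand of that gene and sharing exonic bases with it, read 21.2, 18.8 and 23.2, 18.2, 18.8 and 15.1 and 11.1, 8.73 and 9.81. The part of Satb1 RNA in the reads of Gm36931 was not tested. Every GFPhi sample of both lay below every GFPmed and GFPlo sample. Satb1 fell by 1.37 (SE 0.07, adjusted p = 7.6e-05).

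D630008O14Rik is antisense to Bcl2, the survival gene, with 27.1% of exonic bases shared. It read 35.3, 36.2 and 38.3 TPM in GFPlo, 30.8, 27.8 and 30.3 in GFPmed and 12.8, 16.3 and 15.3 in GFPhi samples, in falling order without overlap. Bcl2 read 55.8, 60.1 and 66.5, 45.3, 46.4 and 46.5 and 19.9, 24 and 27.1 and fell by 1.33 (SE 0.12, adjusted p = 0.00107). Ccr9 encodes the chemokine receptor for CCL25 of the thymic stroma and fell by 2.35 (SE 0.06, adjusted p = 6.59e-06), the largest fall of any neighbour. Gm17021, on its other strand, read 18.9, 21.5 and 16.3, 14.3, 15.2 and 15.5 and 3.79, 3.19 and 4.44 TPM, and Gm17200, on its own strand, 18.6, 20.9 and 16.9, 15.5, 14.8 and 14 and 7.0, 7.14 and 5.79. GFPhi samples of both lay below all others. Both share exonic bases with Ccr9, and the part of Ccr9 RNA in their reads was not tested. Over all its exons Gm17021 held 0.257 times the reads that the density of Ccr9 would put on the shared bases.

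At 3 more genes a lower member stood beside a neighbour that fell. 4731419I09Rik, opposite the metalloproteinase gene Adam15, read 14.9, 17 and 14.3 TPM in GFPlo, 9.65, 12.4 and 10.9 in GFPmed and 4.0, 5.45 and 5.38 in GFPhi samples, and Adam15 fell by 1.70 (SE 0.12, adjusted p = 0.000339). Gm18760, a processed pseudogene inside the choline dehydrogenase gene Chdh, read 31, 31.4 and 32.2, 16.2, 15.5 and 19.5 and 17.9, 6.55 and 8.97, and Chdh fell by 1.80 (SE 0.13, adjusted p = 0.000403). Gm33994 lies 45423 bases from the zinc finger gene Zfp281 and read 40.3, 40.6 and 34.7, 35.7, 27.6 and 33 and 25.4, 16.5 and 14.3, and Zfp281 fell by 1.08 (SE 0.08, adjusted p = 0.000584). The call for Zfp281 was lost in 1 of 18 alternatives, median-of-ratios scaling (difference -0.995, adjusted p = 0.0552, limma). GFPmed samples of 4731419I09Rik lay between the groups, those of Gm18760 overlapped GFPhi samples.

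The largest differences among lower members with at least 10 reads came from transcripts with few reads and neighbours that were not called. Gm42500, an intergenic RNA, had 16, 19 and 25 reads in GFPlo, 12, 9 and 2 in GFPmed and 10, 0 and 0 in GFPhi samples, a difference of -3.13. Gm18622 and Gm19056 are processed pseudogenes on opposite strands near Sypl that do not overlap each other. Gm18622 read 33.4, 56.7 and 46 TPM in GFPlo, 22.1, 18.4 and 12.8 in GFPmed and 2.4, 4.57 and 10 in GFPhi samples. Gm19056 read 50.8, 49.3 and 41.1, 35.9, 17.8 and 25.9 and 10.7, 1.37 and 8.98. Both were lowest in GFPhi samples without overlap with GFPlo, and Sypl differed by -0.30 (SE 0.08, adjusted p = 0.101). The others were Gm36520 (-2.54), Gm9256 (-2.41), 1700047N06Rik (-2.23), Gm6969 (-2.10) and Gm49026 (-2.07), on at most 59 reads in any sample and with no GFPhi sample above a GFPlo sample. Their neighbours Rpl34 (0.35), Zfp386 (-0.16), Cspp1 (0.11), Klf11 (-0.51) and Pibf1 (-0.20) were not called, and Tmem132d beside Gm42500 was too low to test.

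Reads of pseudogenes can stem from the gene they copy. A near copy (at least 95% identity over at least 100 bases) was found for 39 higher and 70 lower members, and that copy was a coding gene for 28 and 55. Near copies were searched for members only, so no share over all provisionally named genes stands beside these counts. Beside the lower members 47 coding copies were tested, of which 1 was called, in the higher direction, with a median difference of -0.01. Beside the higher members the 21 tested copies had a median of 0.02.

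Protein-coding members numbered 14. Besides 1110032F04Rik and Gm3636, 2510009E07Rik read 5.72, 4.63 and 4.54 TPM in GFPlo, 9.0, 6.69 and 6.32 in GFPmed and 12.3, 11.1 and 10.8 in GFPhi samples, in order and apart. E130208F15Rik has all 1733 exonic bases opposite exons of Sdhaf1, an assembly factor gene of respiratory complex II, and held 1.07 times the reads that the density of Sdhaf1 would give. It read 32.2, 37.5 and 36.6, 43.9, 54.3 and 64.7 and 83.4, 104 and 99.8 TPM. Gm26566, the best read of the 5 lower coding members, has 72.0% of its exonic bases opposite Klhl9. It read 78.8, 87.5 and 86.9, 80.1, 63.9 and 86.7 and 25.6, 43 and 40.2, with GFPmed and GFPlo samples overlapping and GFPhi samples lower.

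GFPmed samples had no part in choosing the members. Placed on a scale from 0 (GFPlo mean) to 1 (GFPhi mean), the GFPmed mean of a member had a median of 0.415 over the 157 higher members (quartiles 0.153 and 0.658) and 0.445 over the 247 lower ones (quartiles 0.236 and 0.707). With at least 10 reads the medians were 0.358 over 97 and 0.426 over 81 members. The value lay between 0 and 1 for 127 higher and 196 lower members. The GFPlo and GFPhi samples that set the scale also chose the members, so this is a description.

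**Figure D5:**
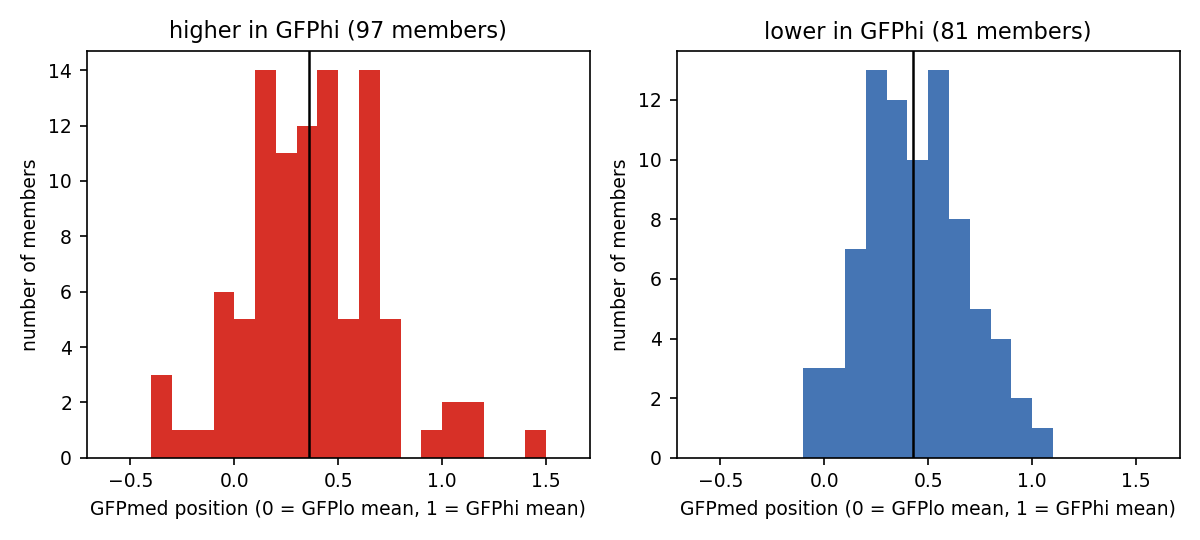
Number of members with at least 10 reads (y axis) by the place of the GFPmed mean between the GFPlo mean (0) and the GFPhi mean (1) on the log2(TPM + 1) scale (x axis), for 97 higher (left) and 81 lower (right) members; the black line is the median, at 0.358 and 0.426. Between 0 and 1 lie 81 of the 97 and 77 of the 81 members.

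Differences from GFPmed cells reuse samples that chose the members, so calls among the members are given as counts and support nothing. In GFPmed against GFPlo cells, where the GFPlo samples are shared with the rule, 3 members met the limits of a call, all 3 higher, namely Gm16008 (a difference of 1.02), Gm22806 and Gm22783. The last 2 are a snoRNA-class and an snRNA-class gene with at most 8 reads in any sample and without reads in GFPlo samples. Among all genes tested 17 were called higher (0.0554%) and 1 lower (0.00326%). In GFPhi against GFPmed cells, where the GFPhi samples are shared, 26 higher members met the limits upward and 6 lower members downward, and Gm22783, of the higher set, met them downward. Among all genes tested 166 were called higher (0.541%) and 46 lower (0.15%). These shares are no yardstick for the members, whose GFPhi values were required to stand apart. The 26 included 1110032F04Rik (4.08), Arhgap20os (2.09), Gm28513 (2.47), Gm17041 (1.52) and Gm45515 (1.63). The 6 were Gm17021 (-1.74), Gm17200, Gm37248, 4731419I09Rik, Gm26566 and Gm38280. Single libraries moved these counts. The 33 calls in GFPhi against GFPmed cells became 15 without GFPmed replicate 1, GFPmed replicate 2 or GFPhi replicate 3, and 19 without GFPmed replicate 3. The 3 calls in GFPmed against GFPlo cells became 5 without GFPlo replicate 1 and 1 without GFPlo replicate 2 or GFPmed replicate 3.

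Noncoding RNAs with a proper name served as a comparison. Of a list of 36 long noncoding RNAs, among them Malat1, Neat1, Gas5 and the Snhg host genes, 34 were in the table and 32 were tested in GFPhi against GFPlo cells. The 1 that was called was Mir155hg, the host transcript of miR-155, which is induced by antigen receptor signals. It read 1.18, 1.12 and 1.68 TPM in GFPlo, 3.67, 4.23 and 3.20 in GFPmed and 11.4, 15.1 and 15.3 in GFPhi samples, in order and apart. It rose by 2.68 (SE 0.21, adjusted p = 0.000565), and by 1.66 in GFPhi against GFPmed cells (adjusted p = 0.0104). The median difference over the list was -0.05, against -0.09 over all genes tested.

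The thresholds cut through a continuum of values. The smallest difference inside was that of 4933416M07Rik (1.01) and the largest outside that of Gm43890 (0.996), and in the lower direction Gm37878 (-1.01) and Gm44040 (-0.998). On the TPM limit, Gm22783 (5.03, from 1 read per GFPhi sample) was inside and Gm5518 (4.97) outside, with Gm6235 (5.003) and Gm10182 (4.997) in the lower direction. On overlap, Gm12944 (13.2 TPM in the highest GFPlo and 13.3 in the lowest GFPhi sample) was inside and Gm11268 outside, where 1 GFPhi sample and all GFPlo samples were at 0. In the lower direction Gm22571 (61.3 against 61.1 TPM) was inside and Gm14389 outside.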

How the data were processed

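RNA of 9 samples of Nur77-eGFP BAC Tg semi-mature SP4 thymocytes, 3 per GFP group, was amplified with SMART-seq v4 and made into Nextera XT libraries. According to the labels and the study's methods, the authors trimmed reads, aligned them with STAR 2.7.11b to GRCm38 (mm10) with GENCODE vM25 genes, removed duplicates, counted reads per gene and deposited TPM per sample. The deposited table also gives a signal per group, the mean of reads divided by DESeq2 1.34.0 size factors, and the authors' log2 fold changes, adjusted p-values and call flags, which were not used. No sample column was left unused.

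Groups and replicate numbers came from the sample labels, and nothing says whether the replicates of a group came from separate mice beyond the words biological replicate, so p-values measure the spread between these samples. Whole reads per sample were solved from the TPM and the group means (100% of values whole within 0.01 reads, 4 of 41978 genes not solved). Reads were amplified without molecular identifiers, so they are not independent molecules. Positions, classes and neighbours came from GENCODE release 21 of the same build (3 members not in it), promoter windows from RefSeq, and near copies from blastn 2.17.0.

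Tests used limma 3.58.1 (R 4.3.3) on log2(TPM + 1), one model over the 9 samples with a mean-variance trend, for the 30693 genes that reached 1 TPM in 3 or more of the samples, with Benjamini-Hochberg adjustment over all of them. A call needed an adjusted p of at most 0.05 and a log2 fold change of at least 1 in size. Fold changes on this scale understate the change of low genes. The scripts were tested on simulated data. The members and lists were chosen with earlier results of these data known. Named members are the 12 largest rises and 8 largest falls with at least 10 reads in the higher group, those ending in os or -as1, and those beside each threshold. Named neighbours are theirs and the 5 largest called changes each way. All other members and neighbours in the text were named after their values were seen. Alternatives were another pseudocount, filter, scaling, level or read minimum, neighbour definition, model (2 groups only, no trend, replicate block, limma-voom on whole reads) and leaving out each sample.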

Additional observations from a re-analysis of the deposited data

How the results depend on the processing

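The set of members changed with the level and read limits, the scaling and single samples. A mean TPM of at least 1 gave 408 lower members and one of at least 10 gave 151, and at least 10 reads left 97 higher and 81 lower. Scaling turned the split of 157 higher and 247 lower members to 197 and 217 (median-of-ratios) and to 223 and 208 (quantile). Leaving out 1 sample loosens the rule, and higher members then numbered 157 to 416 (325 without GFPlo replicate 1, 243 without GFPlo replicate 2, 265 without GFPhi replicate 3) and lower members 247 to 859 (487 without GFPlo replicate 2, 372 without GFPhi replicate 3). The median GFPmed position over all members was 0.433 and became 0.411 with a pseudocount of 0.1, 0.440 and 0.442 with a mean TPM of at least 1 and 10, 0.426 with median-of-ratios scaling, 0.395 with at least 10 reads and 0.292 to 0.551 with 1 sample left out.

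Members called in GFPmed against GFPlo cells rose from 3 to 7 with a pseudocount of 0.1 (1 to 5 with 1 sample left out). Those called in GFPhi against GFPmed cells went from 33 to 18 with median-of-ratios scaling and to 20 with 2 groups in the fit (15 to 33 with 1 sample left out). Neighbours called beside higher members numbered 25 to 30 with 1 sample left out, and those called lower beside lower members went from 6 to 10 with limma-voom (6 to 7 with 1 sample left out). Named long noncoding RNAs called went from 1 to 2 with quantile normalization, limma-voom or the replicate block, the added one being Mirt1 each time.

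Over all genes, calls in GFPmed against GFPlo cells went from 18 to 29 (pseudocount 0.1), 5 (median-of-ratios), 10 (2 groups in the fit) and 8 (no trend), and to 2 to 18 with 1 sample left out (5 without GFPlo replicate 2 or 3, 8 without GFPmed replicate 1, 11 without GFPmed replicate 2, 2 without GFPmed replicate 3). Calls in GFPhi against GFPmed cells went from 212 to 102 (median-of-ratios) and 337 (limma-voom), and to 120 to 205 with 1 sample left out (131, 120 and 133 without GFPmed replicates 1, 2 and 3, 129 without GFPhi replicate 3). Calls in GFPhi against GFPlo cells ran from 359 to 503 with 1 sample left out. The difference of Mad1l1 changed sign, to 0.048 (median-of-ratios) and 0.13 (quantile), and ran from -0.059 to 0.043 with 1 sample left out (0.020 without GFPlo replicate 2, 0.043 without GFPhi replicate 1). The causes of these shifts were not tested. Of the other values for named genes, 658 stayed on the same side, 12 members' differences grew with the smaller pseudocount, 15 calls were lost and 3 were gained.

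No source used here says that a replicate number marks a shared mouse or sort. Deviations of same-numbered samples correlated at 0.0122 to 0.225 over 9 pairs (mean 0.0609, against -0.0305 for other numbers), and 6 of 9 samples were closest to their own number, so the samples were treated as sharing only a number and pairing was not settled. With the replicate block 5 genes were called in GFPmed against GFPlo cells. Depth was low for 60 higher and 166 lower members, which had under 10 reads.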
